A study of Homo sapiens with 6 samples.

Results

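Wnt signalling was followed in MDA-MB-231 cells through 10 genes, chosen by name with earlier results of these data known. They were the secreted inhibitors DKK1 and SFRP1, the Dickkopf relative DKK3, the ligand WNT5A and the receptors FZD2 and FZD6. With them came the co-receptors LRP5 and LRP6, beta-catenin (CTNNB1) and its nuclear partner TCF7L2. Every probe set that the array annotation assigns to 1 of these genes alone was taken, which gave 23 of the 22283 probe sets on the array, for 10 of the 11963 genes that a probe set names alone. MDA-MB-231 is an established human breast cancer cell line, oestrogen receptor negative and mesenchymal-like, that is widely used as a model of metastasis to bone. The siPTHrP group held 3 RNAs of cells electroporated with an siRNA against parathyroid hormone-related protein (PTHrP), and the siLuc group held 3 RNAs of cells electroporated with the control siRNA of that name. All cells were harvested 3 days after transfection, and each of 3 independent experiments gave 1 RNA of either kind, hybridised to 1 Affymetrix human U133 array of type A. Both groups had thus been through electroporation and carried an siRNA, and no untransfected cells are among these samples.

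Wnt proteins are secreted ligands that bind Frizzled receptors on the cell surface. In the pathway that runs through beta-catenin, the co-receptors LRP5 and LRP6 join the complex, the cytoplasmic breakdown of beta-catenin stops, and beta-catenin enters the nucleus, where it works with TCF/LEF factors such as TCF7L2. The Dickkopf protein DKK1 blocks the co-receptors, and secreted Frizzled-related proteins such as SFRP1 bind the ligands. In bone, Wnt signalling promotes the formation of osteoblasts, and DKK1 from tumour cells is known as an inhibitor of it. PTHrP acts on bone through a receptor that raises cAMP.

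The values are MAS5 signals, linear intensities that had been scaled to a common trimmed mean (1500.4 to 1500.6 with 2% trimmed from either end). The siLuc array of experiment 1 stood apart: its Spearman correlation with the other arrays, across probe sets, was 0.716 to 0.725, while the other 5 correlated among themselves at 0.882 to 0.96. Its 18 probe sets for spiked hybridisation controls had a geometric mean signal of 273100, against 10840 to 41430 on the other arrays. Its median signal was 887.2, against 559 to 659 on the others. Of its values 90.1% had decimals, against 0% on each other array. The cause of these differences was not tested. Member values that moved most without this array are given both ways. Of the mesenchymal-like markers 9 of 10 passed the filter on dim probe sets. Vimentin (VIM) had signals of 96463 to 154350 with siPTHrP and 121601 to 151824 with siLuc. Others of that list were dim, as CDH2 had 309 to 484 with siPTHrP and 437 to 1444 with siLuc. SPARC was below the filter, at 25 to 226 with siPTHrP and 77 to 843 with siLuc. The summed signal of these 10 markers was 172200 to 233900 with siPTHrP and 204800 to 226000 with siLuc. Of 10 luminal epithelial markers 7 passed the filter, and their list summed to 15430 to 18490 with siPTHrP and 16990 to 20500 with siLuc. Within that list keratin 18 (KRT18) had 8223 to 11920 with siPTHrP and 10609 to 12381 with siLuc. E-cadherin (CDH1) was below the filter, at 23 to 237 with siPTHrP and 120 to 436 with siLuc. The oestrogen receptor gene ESR1 passed the filter, at 154 to 575 with siPTHrP and 482 to 1720 with siLuc. GATA3 and FOXA1 passed too, so passing the filter does not by itself tell the lists apart. Markers of leukocytes (3 measured), endothelium (4) and osteoblasts (3) summed to 675 to 1643 per list with siPTHrP and 925 to 4759 with siLuc, with the highest siLuc value of each list on the array of experiment 1. The knockdown of the siRNA target was not analysed here.

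The promoters of 4 members are shown. The brightest probe sets of CTNNB1, LRP5 and TCF7L2 did not overlap between the groups, and DKK1 is itself a known target of beta-catenin. FZD6 and DKK3 did not overlap either, but no promoter of theirs was found in the RefSeq table. Each sequence holds the 250 bases before the start of a RefSeq transcript, 5′ to 3′ on the strand of the gene, in build GRCh38.p14. For TCF7L2, which has several starts, the most upstream one listed is shown. Capitals mark matches, on either strand, to the cAMP response element core TGACG, the CCAAT box CCAAT, the GC box GGGCGG, the TCF/LEF motif CTTTGNT and the TATA box TATAAA. Matches can overlap, as GC boxes do for TCF7L2.
CTNNB1 (chr3:41199255-41199504, plus strand): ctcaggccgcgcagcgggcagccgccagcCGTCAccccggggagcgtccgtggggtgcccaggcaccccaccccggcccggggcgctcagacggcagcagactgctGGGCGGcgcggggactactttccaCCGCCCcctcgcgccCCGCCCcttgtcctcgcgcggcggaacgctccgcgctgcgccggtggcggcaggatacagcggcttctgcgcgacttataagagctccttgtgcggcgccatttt
LRP5 (chr11:68312341-68312590, plus strand): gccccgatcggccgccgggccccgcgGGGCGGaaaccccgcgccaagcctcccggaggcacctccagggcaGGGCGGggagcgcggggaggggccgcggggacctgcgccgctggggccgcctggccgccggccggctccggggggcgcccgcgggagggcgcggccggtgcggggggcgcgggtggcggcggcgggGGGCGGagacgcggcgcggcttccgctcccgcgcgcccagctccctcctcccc
TCF7L2 (chr10:112949997-112950246, plus strand): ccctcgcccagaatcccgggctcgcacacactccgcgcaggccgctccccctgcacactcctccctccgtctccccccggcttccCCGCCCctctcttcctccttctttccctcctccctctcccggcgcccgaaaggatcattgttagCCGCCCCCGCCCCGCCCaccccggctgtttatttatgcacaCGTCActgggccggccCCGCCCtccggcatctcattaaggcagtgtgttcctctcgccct
DKK1 (chr10:52314031-52314280, plus strand): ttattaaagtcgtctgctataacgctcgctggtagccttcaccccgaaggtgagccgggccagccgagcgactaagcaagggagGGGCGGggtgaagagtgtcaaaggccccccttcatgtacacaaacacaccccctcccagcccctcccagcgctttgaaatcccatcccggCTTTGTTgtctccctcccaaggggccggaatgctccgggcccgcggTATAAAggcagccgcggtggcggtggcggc

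In these windows CTNNB1 held 1 TGACG and 3 GC boxes, LRP5 held 3 GC boxes, and TCF7L2 held 1 TGACG and 5 GC boxes. DKK1 held 1 TCF/LEF motif, 76 bases before the start, 1 GC box and 1 TATA box. Of 35116 RefSeq promoters of the same length, 21.2% held TGACG, 42.6% a GC box, 13.2% the TCF/LEF motif, 32% CCAAT and 10.7% TATAAA. The complete cAMP response element TGACGTCA, present in 1.65% of all promoters, was in none of the 4. The windows of LRP5, CTNNB1, TCF7L2 and DKK1 had 87.2%, 74.4%, 68% and 62.8% G and C, where the median of all promoters was 58%. A match in these letters is a description of the sequence.

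The comparison asked which Wnt pathway transcripts differed between siPTHrP and siLuc RNA of the same experiment. Beta-catenin and the receptor FZD6 had 1.94-fold and 2.01-fold the siLuc signal with siPTHrP in the mean of 3 experiments, TCF7L2 and DKK1 had 1.53-fold on their brightest probe sets, and LRP5 had 1.3-fold. DKK3 and SFRP1 lay below the filter on dim probe sets, and WNT5A and FZD2 had nearly equal means in the groups. In RNA of whole cultures, less transcript per cell and fewer cells that carry it cannot be told apart. No member passed the threshold, a Benjamini-Hochberg adjusted p under 0.05 in limma with experiments paired. Over the whole array 0 of 13329 tested probe sets (0%) passed, and the 14 member probe sets among them, from 8 genes, had adjusted p-values of 0.287 to 0.925. At an unadjusted p under 0.05, limma gave 903 higher probe sets (6.77%) and 715 lower ones (5.36%), and with the arrays centred on their medians 1930 higher and 185 lower. The members at an unadjusted p under 0.05 were CTNNB1, FZD6, DKK1 and 3 probe sets of TCF7L2, all higher with siPTHrP. With no intensity trend in the limma variances, only CTNNB1 and FZD6 were under it (unadjusted p = 0.0109 and 0.0234).

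Counted by separation of the groups, all 3 siPTHrP arrays lay above all 3 siLuc arrays for 7 of the 23 member probe sets, from 4 genes, where 6.2% of all 22215 probe sets without controls did so. Of these 7, 4 belong to TCF7L2 and measure the same gene. All 3 siPTHrP arrays lay below all siLuc arrays for 1 member probe set, of DKK3, where 12.6% of all probe sets did so. Without the siLuc array of experiment 1 the count above was 8 of 23, with a background of 10.3%, and the count below was again 1, with a background of 19.1%. Over the brightest probe set of each gene, the median log2 fold change of the 10 genes was 0.50 (siPTHrP over siLuc, on the log2(signal + 16) scale), with 8 of 10 above 0. Over all probe sets without controls the median was -0.16, over those that passed the filter 0.03, and over those that passed a filter at the 60th percentile 0.09. The 10 genes had medians of 0.50, 0.23 and 0.43 in experiments 1, 2 and 3, with 7, 7 and 6 genes above 0. All probe sets past the filter had 0.08, -0.04 and -0.02. Since the genes were chosen with earlier results of these data known, these shares and medians are a description. Their distance from the background was not tested.

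**Figure D1:**
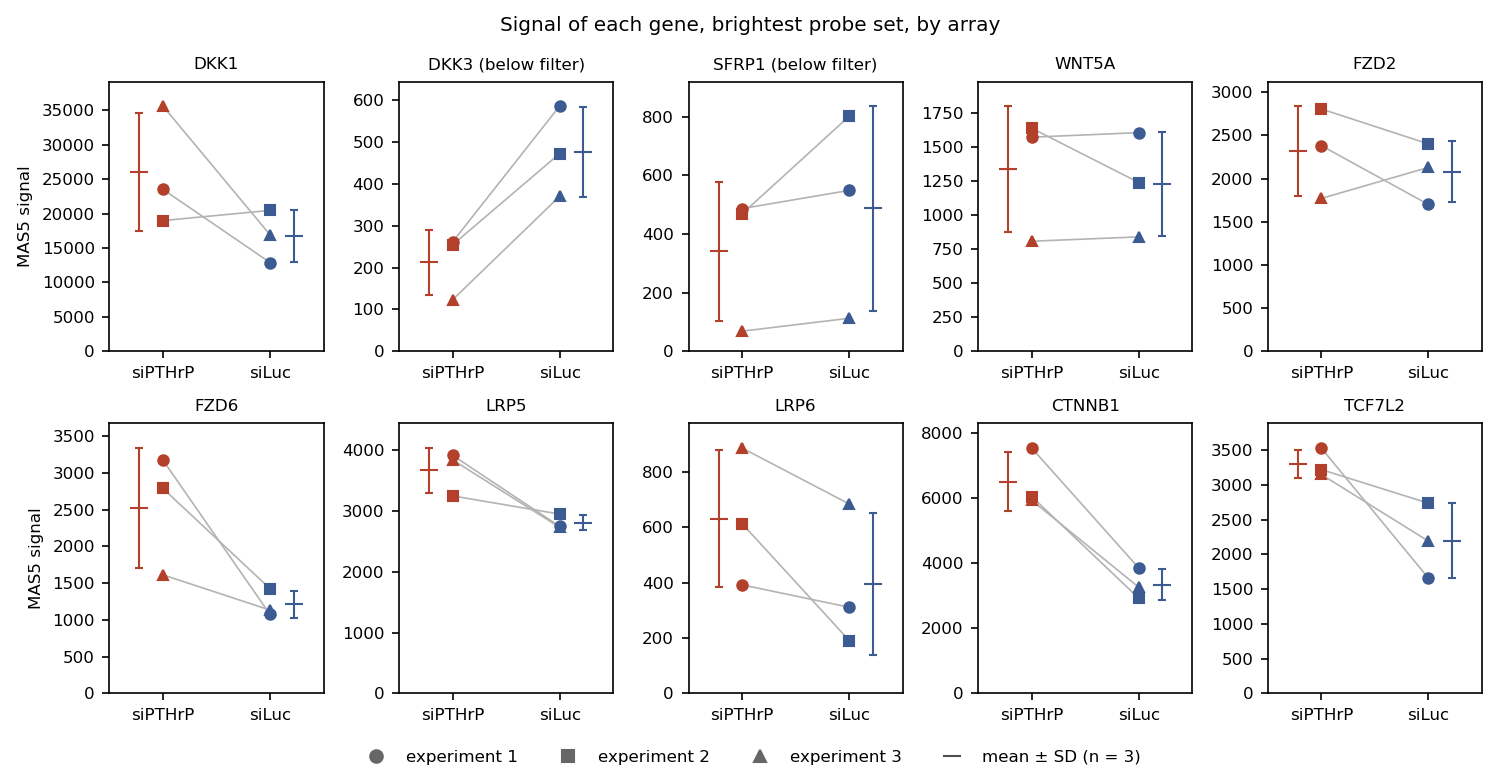
MAS5 signal (vertical axis, linear, from 0) of the brightest probe set of each of the 10 genes on the 3 siPTHrP and 3 siLuc arrays, with lines joining arrays of the same experiment and bars for the mean ± SD. FZD6, LRP5, CTNNB1 and TCF7L2 have all 3 siPTHrP points above the siLuc points, DKK3 has them below, and the other 5 genes overlap.

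Beta-catenin had the smallest p among the members. CTNNB1, which encodes the protein that carries the Wnt signal into the nucleus and also links cadherins to the actin skeleton, is measured by 1 probe set. Its signal was 7537, 6048 and 5933 in siPTHrP experiments 1, 2 and 3, against 3849, 2922 and 3259 in siLuc. The lowest siPTHrP array was thus above the highest siLuc array. CTNNB1 averaged 6506 ± 895 with siPTHrP and 3343 ± 469 with siLuc (SD, n = 3), a 1.94-fold difference. The log2 difference was alike in the experiments, at 0.97, 1.05 and 0.86, with a mean of 0.96 (limma SE 0.18, 95% confidence interval 0.54 to 1.37). By its unadjusted limma p of 0.00053 CTNNB1 ranked 21st of 13329 probe sets, and its adjusted p was 0.287, so it did not pass. It passed with estimated array weights (limma adjusted p = 0.013) and without experiment 3 (adjusted p = 0.0443), but not without experiment 1 (adjusted p = 0.0835) or experiment 2 (adjusted p = 0.196). Its adjusted p was between 0.013 and 0.532 over 14 alternatives. Without the siLuc array of experiment 1 the log2 fold change was 1.06.

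TCF7L2, a DNA-binding partner of beta-catenin, has 6 probe sets, which did not all give the same picture. On the brightest, 212761_at, the signal was 3531, 3221 and 3151 with siPTHrP, against 1659, 2737 and 2191 with siLuc in experiments 1, 2 and 3. The groups did not overlap, and the log2 fold change was 0.61 (SE 0.25, limma unadjusted p = 0.0351, adjusted p = 0.398). Without the siLuc array of experiment 1 and without pairing, the log2 fold change was 0.43 (limma unadjusted p = 0.0591). The probe set 216035_x_at had 1873, 1828 and 1728 with siPTHrP, against 137, 1396 and 1522 with siLuc. Here the siLuc array of experiment 1 was far below the other 5, with a log2 difference of 3.63 in experiment 1 but 0.39 and 0.18 in the others. Its mean log2 fold change of 1.40 became 0.31 without that array.

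The related sets 216037_x_at and 216511_s_at had the same shape, with 245 and 511 on that siLuc array and 1115 to 1530 on the other siLuc arrays. Their log2 fold changes were 1.21 and 0.92, and 0.40 and 0.48 without it. By Affymetrix naming, sets marked _x_at hold probes that can also bind other sequences. The set 212762_s_at overlapped between the groups, with a log2 fold change of 0.54 (0.89 without the siLuc array of experiment 1). The set 212759_s_at went the other way, with signals of 604, 227 and 925 with siPTHrP and 649, 460 and 1241 with siLuc, a log2 fold change of -0.50. Of the 6 sets, 5 had a log2 fold change above 0, and limma adjusted p-values lay between 0.398 and 0.678.

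**Figure D2:**
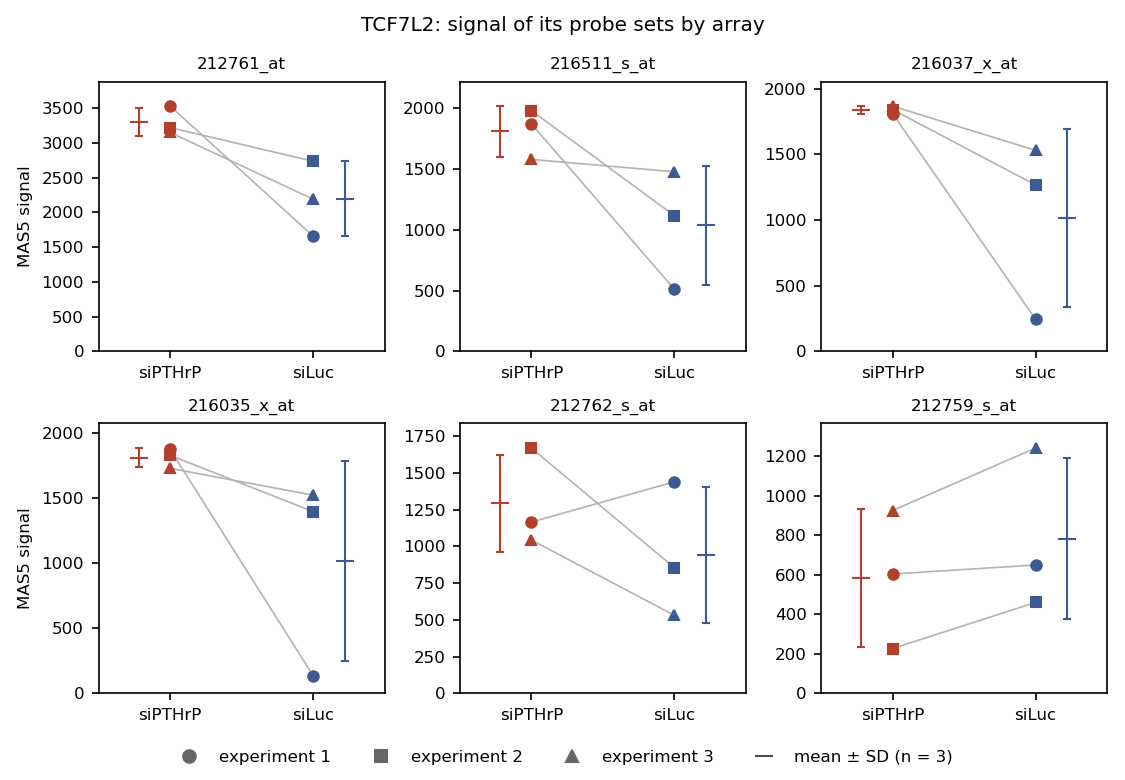
MAS5 signal (vertical axis, linear, from 0) of the 6 probe sets of TCF7L2 on the 3 siPTHrP and 3 siLuc arrays, with lines joining arrays of the same experiment and bars for the mean ± SD. On 216035_x_at and 216037_x_at the siLuc array of experiment 1 (137 and 245) lies far below the others, and on 212759_s_at each siPTHrP point is below its siLuc partner.

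Of the Frizzled receptors, FZD6 was separated between the groups and FZD2 was not. FZD6, a receptor linked mainly to Wnt signalling without beta-catenin and to planar cell polarity, had signals of 3175, 2790 and 1614 with siPTHrP, against 1075, 1425 and 1134 with siLuc in experiments 1, 2 and 3. The groups did not overlap, though the siPTHrP array of experiment 3 lay close to the highest siLuc array. FZD6 averaged 2526 ± 813 with siPTHrP and 1211 ± 187 with siLuc (SD, n = 3). Its log2 difference was 1.55, 0.96 and 0.50 in experiments 1, 2 and 3, with a mean of 1.00 (SE 0.30, limma unadjusted p = 0.00865, adjusted p = 0.342). Over 14 alternatives its adjusted p ranged from 0.0939 to 0.532. FZD2, a Frizzled receptor that can bind WNT5A, had 2381, 2805 and 1770 with siPTHrP, against 1700, 2401 and 2129 with siLuc. These values overlapped, and the log2 fold change of 0.15 (limma 95% confidence interval -0.44 to 0.73) was -0.02 without experiment 1 and 0.01 without its siLuc array alone. The difference between the responses of FZD6 and FZD2 was not tested.

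Of the co-receptors, LRP5 was separated between the groups and LRP6 was not. LRP5, which pairs with Frizzled receptors and is known for its effect on bone mass, had signals of 3922, 3253 and 3847 with siPTHrP, against 2750, 2953 and 2735 with siLuc in experiments 1, 2 and 3. All siPTHrP arrays were above all siLuc arrays. LRP5 averaged 3674 ± 367 with siPTHrP and 2813 ± 122 with siLuc (SD, n = 3), a log2 fold change of 0.38 (limma 95% confidence interval -0.10 to 0.86, adjusted p = 0.472). LRP6, its close relative, has 2 probe sets that disagreed in sign. On 205606_at it had 392, 613 and 886 with siPTHrP, against 311, 191 and 684 with siLuc, which gave 0.76 as log2 fold change (SE 0.62, limma adjusted p = 0.598). On 34697_at it had 385, 460 and 351 with siPTHrP, against 408, 559 and 389 with siLuc, which gave -0.16 as log2 fold change (SE 0.61, limma adjusted p = 0.925). The groups overlapped on both sets, in each of which the 3 experiments shared 1 sign. With quantile normalization and median centring 34697_at had log2 fold changes of 0.145 and 0.162, so the disagreement in sign depended on the scaling. Both sets were dim, with mean log2 values of 8.88 and 8.77 where the filter cut was 8.614.

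WNT5A, a ligand that acts mostly without beta-catenin, had nearly equal means. On its brighter probe set the signal was 1573, 1639 and 809 with siPTHrP, against 1606, 1240 and 841 with siLuc in experiments 1, 2 and 3. The pair of experiment 3 was lower than the other arrays in either group, and the log2 fold change was 0.10 (limma 95% confidence interval -0.63 to 0.84, adjusted p = 0.907). With the arrays centred on their medians the log2 fold change was 0.43, and leaving out the siLuc array of experiment 1 gave 0.32. An interval this wide leaves room for differences in either direction. Its dimmer set, below the filter, had a log2 fold change of 0.08.

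Of DKK1, DKK3 and SFRP1 only DKK1 passed the filter. DKK1 had 23507, 18974 and 35588 with siPTHrP, against 12890, 20455 and 16909 with siLuc in experiments 1, 2 and 3. The groups overlapped, since in experiment 2 the siPTHrP array was slightly lower than its partner. DKK1 averaged 26023 ± 8588 with siPTHrP and 16751 ± 3785 with siLuc (SD, n = 3), and its log2 difference was 0.87, -0.11 and 1.07 in the experiments. The mean of 0.61 (SE 0.23) had an unadjusted limma p of 0.0249 (0.129 with no intensity trend) and an adjusted p of 0.388. It was 0.97 without experiment 2 (limma adjusted p = 0.0718), 0.38 without experiment 3 and 0.43 without the siLuc array of experiment 1.

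DKK3, a Dickkopf relative that is often silenced in tumours, and SFRP1, which binds Wnt ligands, had no probe set past the filter. The 5 sets of DKK3 had signals between 10 and 686, and the 3 sets of SFRP1 between 28 and 802. The brightest DKK3 set had 261, 254 and 123 with siPTHrP, against 585, 472 and 370 with siLuc in experiments 1, 2 and 3. These groups did not overlap, and the log2 fold change was -1.15, with an adjusted limma p of 0.512 when no filter was used. Its other 4 sets overlapped and had log2 fold changes of -1.22 to -0.14, which were -0.345 to -0.005 without the siLuc array of experiment 1. The brightest SFRP1 set had 487, 469 and 69 with siPTHrP, against 549, 802 and 113 with siLuc, a log2 fold change of -0.51 (limma adjusted p = 0.757 with no filter), which was -0.24 without the siLuc array of experiment 1. The experiment 3 arrays were the lowest of either group there. Its other 2 sets had log2 fold changes of -0.83 and -0.19, which were -1.24 and 0.88 without that array. MAS5 subtracts a mismatch signal, so values this low are noisy.

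**Figure D3:**
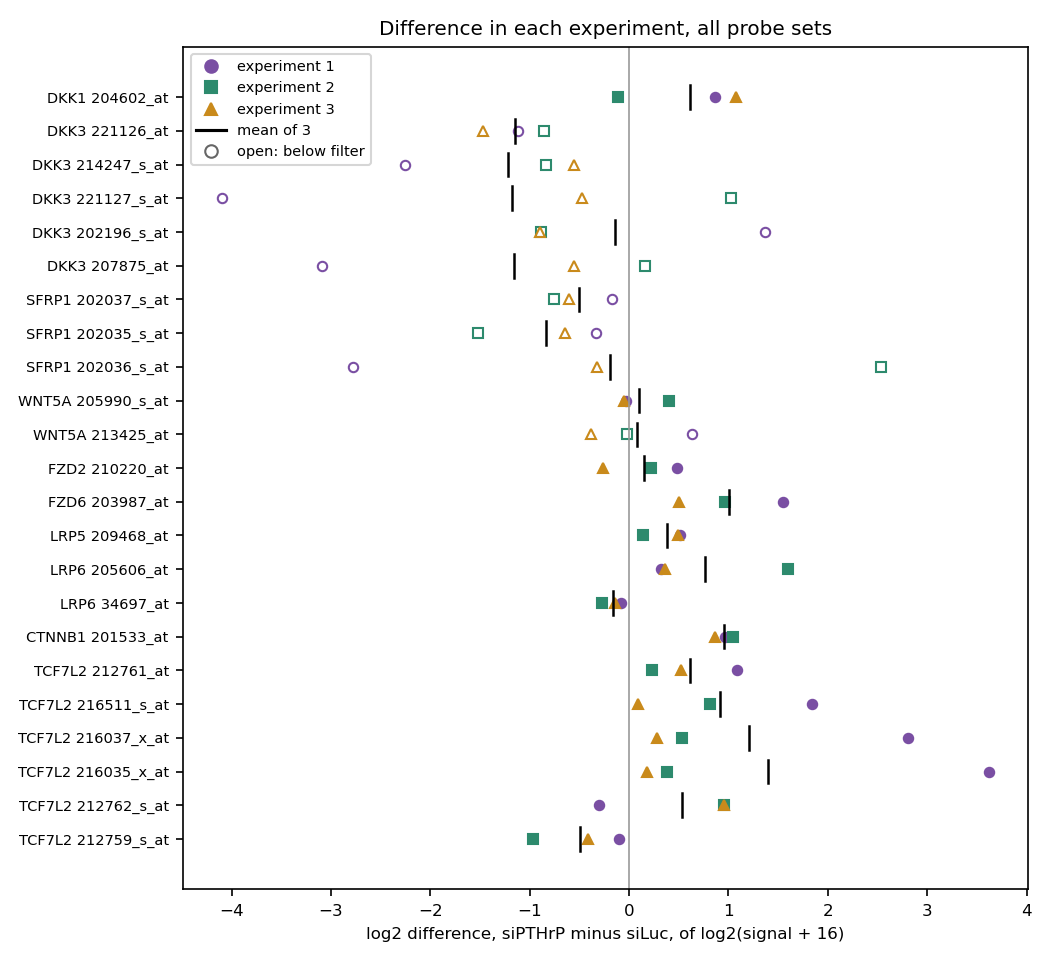
Log2 difference of siPTHrP minus siLuc (horizontal axis, of log2(signal + 16)) in experiments 1, 2 and 3 for all 23 probe sets, with the mean of 3 as a black line and open symbols for sets below the filter. CTNNB1 has 3 close points at 0.97, 1.05 and 0.86, while the dim sets 221127_s_at of DKK3 and 202036_s_at of SFRP1 spread from under -2 to above 1.

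Other genes of the pathway were grouped in 8 lists by role, with 111 of 126 genes on the array and 75 past the filter on their brightest probe set. None of the 75 passed the limma threshold in either direction, and at an unadjusted p under 0.05 there were 1 higher and 4 lower. The median log2 fold change of the 111 genes was -0.10, close to the -0.16 of all probe sets, and that of the 75 was -0.003, against 0.03 of all probe sets past the filter. All 3 siPTHrP arrays were above all siLuc arrays for 2 of the 75 genes and below them for 10, where 8.94% and 9.69% of all probe sets past the filter were so.

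Among 4 ligands past the filter, 2 had an unadjusted p under 0.05. WNT6 had 2241, 2039 and 1881 with siPTHrP, against 3194, 3289 and 2945 with siLuc, a 0.654-fold level (limma unadjusted p = 0.023, adjusted p = 0.379). All 4 of its probe sets had a negative log2 fold change. WNT10B had 392, 380 and 459 with siPTHrP, against 1829, 652 and 1070 with siLuc (0.386-fold, limma adjusted p = 0.377). The groups did not overlap for either ligand, and the siLuc value of WNT10B was highest on the array of experiment 1. WNT5B stood at 1.25-fold and WNT16 at 0.991-fold.

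Of 6 receptors and co-receptors past the filter, FZD4 had 1636, 1308 and 1351 with siPTHrP, against 2128, 2306 and 2920 with siLuc, a 0.589-fold level (limma unadjusted p = 0.021, adjusted p = 0.377). FZD4 is a receptor known for its part in blood vessel formation in the retina. PTK7, a kinase-like co-receptor of planar cell polarity, had 2363, 2422 and 1904 with siPTHrP, against 441, 1459 and 1735 with siLuc (2.11-fold, limma adjusted p = 0.396). As with TCF7L2, the siLuc array of experiment 1 was the lowest for PTK7, with log2 differences of 2.38, 0.73 and 0.13 by experiment. FZD1 and FZD7 stood at 0.523-fold and 1.28-fold. FZD1 had log2 differences of -2.13, 0.64 and -1.32 by experiment, with its highest siLuc signal on the array of experiment 1. The secreted inhibitors and ligand processing genes past the filter were SFRP4, KREMEN2 and WLS. SFRP4 stood at 0.451-fold, and WLS, which carries Wnt proteins to the cell surface, at 0.918-fold. KREMEN2, which assists DKK1 at the co-receptors, stood at 0.586-fold. Its log2 differences were -2.66, 0.52 and -0.175 by experiment, with the highest siLuc signal again on the array of experiment 1.

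The cytoplasmic and nuclear parts of the pathway were measured more fully. Of 18 genes of Dishevelled and the destruction complex, 10 were above 0, with a median of 0.04 and 0 at an unadjusted p under 0.05 in limma. The scaffold AXIN1 stood at 1.73-fold, DVL1 at 0.565-fold, the kinase CSNK1G2 at 0.736-fold and FRAT2, which binds GSK3, at 0.771-fold. For CSNK1G2, 1 of 2 probe sets had that sign. AXIN1 had 130 on the siLuc array of experiment 1 and 1142 to 2215 on every other siLuc array. Of 11 TCF/LEF factors and nuclear partners, 6 were above 0, among them the corepressor TLE1 at 1.32-fold. TLE3, named after its values were seen, stood at 1.64-fold, with log2 differences of 2.61, 0.27 and -0.74 by experiment. CTBP2 stood at 0.799-fold on its brightest probe set, the only 1 of its 6 sets with that sign. BCL9, which binds beta-catenin, stood at 0.537-fold and TLE2 at 0.63-fold.

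Those known target genes of beta-catenin that were measured did not share a direction. Of 25 listed, 22 had a probe set that names them alone, while AXIN2, NKD1 and TNFRSF19 had none. Of 17 past the filter, 7 were above 0 and the median log2 fold change was -0.01. EDN1, which encodes endothelin, had 91, 421 and 1076 with siPTHrP, against 1515, 970 and 1007 with siLuc (0.321-fold, limma unadjusted p = 0.0476, adjusted p = 0.41), and its groups overlapped. NRCAM stood at 0.449-fold, PPARD at 0.582-fold and CCN1 at 0.844-fold. The widely used targets MYC and CCND1, named after their values were seen, stood at 1.06-fold and 1-fold, with limma adjusted p-values of 0.867 and 0.993.

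Of the junction partners 3 passed the filter, with the cadherins CDH11 at 1.3-fold and CDH2 at 0.528-fold and the catenin CTNNA1 at 1.01-fold. For CDH2 the log2 differences were -2.17, 0.14 and -0.74 by experiment, with the highest siLuc signal on the array of experiment 1. Wnt signalling without beta-catenin had 8 of 13 genes above 0 and a median of 0.295. In that list PRKCA stood at 1.32-fold, the GTPase RHOA at 1.28-fold, the planar polarity genes VANGL1 at 1.99-fold and CELSR2 at 0.605-fold. Of their probe sets, 2 of 4 for PRKCA and 1 of 2 for CELSR2 had the sign of the brightest. The signal of VANGL1 was 103 on the siLuc array of experiment 1, against 870 and 689 on the other siLuc arrays, and its log2 difference was 2.67, -0.05 and 0.36 in experiments 1, 2 and 3.

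**Figure D4:**
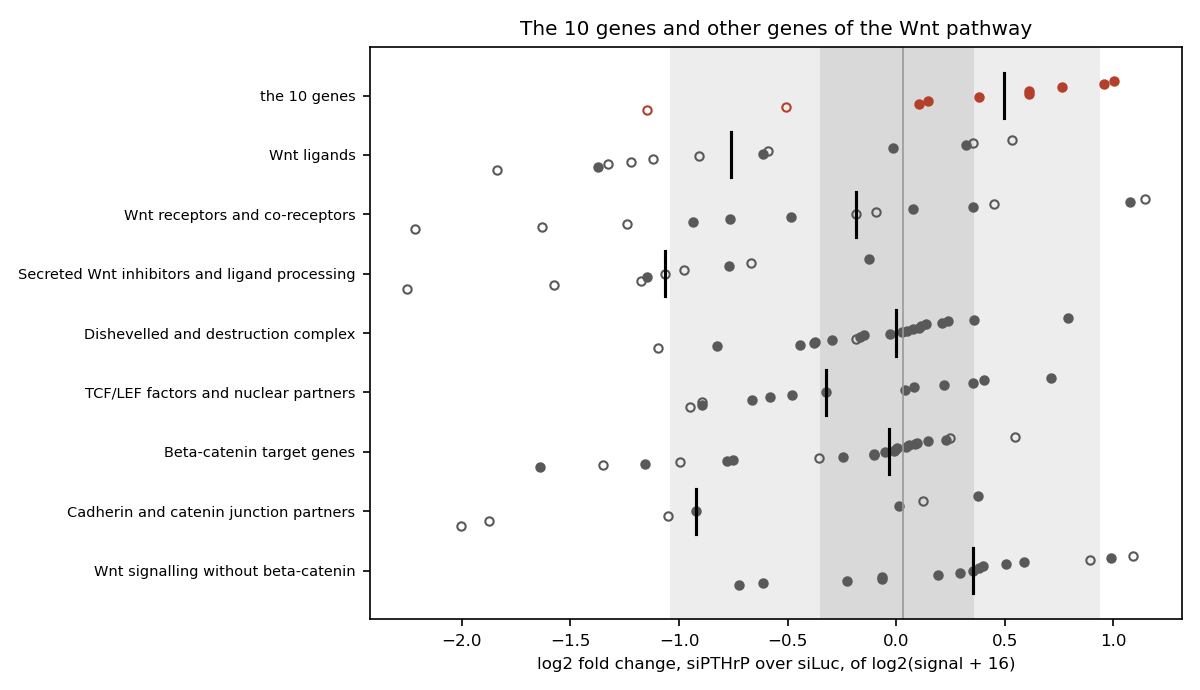
Log2 fold change of siPTHrP over siLuc (horizontal axis, of log2(signal + 16)) for the 10 genes and 8 lists of other Wnt pathway genes, 1 point per gene on its brightest probe set, open where below the filter, with list medians as black lines. Dark and light grey bands hold the middle 50% and 90% of all probe sets past the filter; the 10 genes have a median of 0.50 and the target genes one of -0.03 over all 22 on the array.

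Across the 6 arrays, the genes whose log2 signal was most like that of CTNNB1, out of 8119 with a named probe set past the filter, were RIOK3, CDC25B and TOPBP1, with Pearson correlations of 0.986, 0.982 and 0.982. Those most like DKK1 were ITGB3BP, YWHAB and HIVEP2, at 0.991, 0.985 and 0.984. These correlations are a description over 6 arrays that share the same 2 groups. Without the siLuc array of experiment 1 all 6 lay between 0.978 and 0.991.

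**Figure D5:**
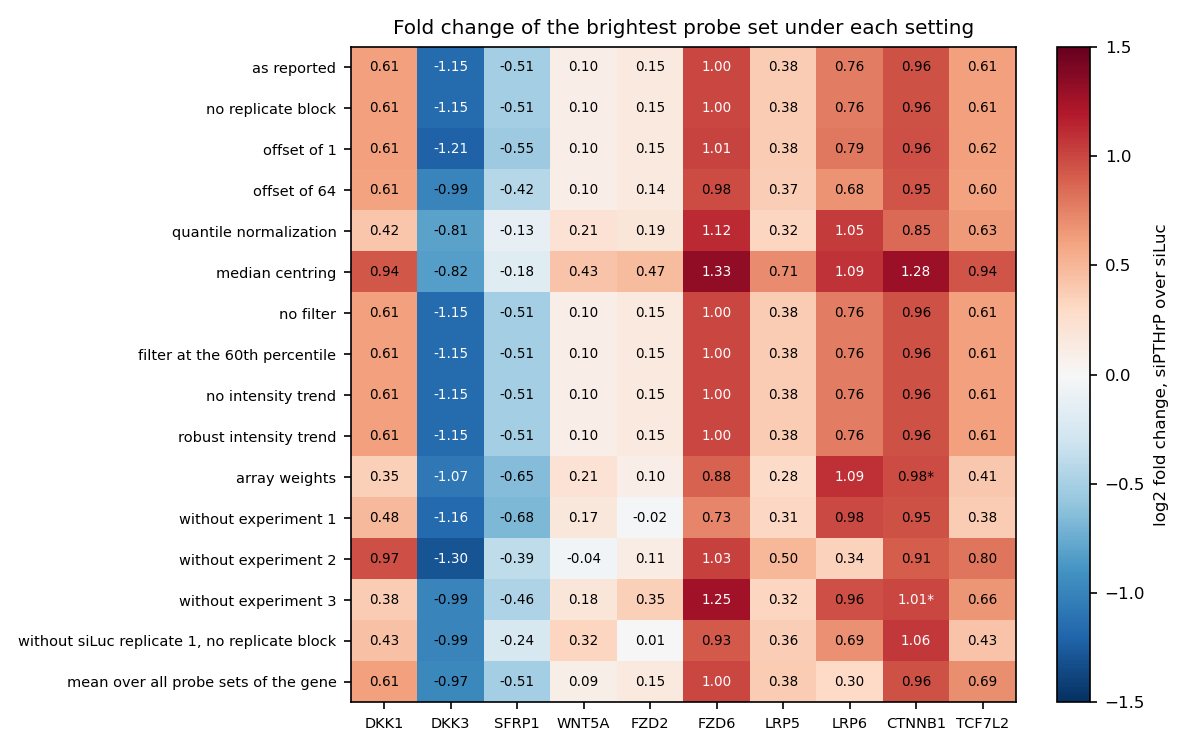
Log2 fold change of siPTHrP over siLuc (colour and printed value) of the brightest probe set of each gene in columns, under the settings named in rows, where an asterisk marks a limma adjusted p under 0.05. CTNNB1 stays between 0.85 and 1.28 and has the only asterisks, with array weights and without experiment 3, while FZD2 is slightly negative without experiment 1 and WNT5A without experiment 2.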

How the data were processed

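Total RNA of 6 MDA-MB-231 samples was biotin-labelled and hybridised to Affymetrix human U133 type A arrays, per the labels' protocols. The deposited values are linear signal intensities from MAS5, per the submitters' processing notes; the MAS5 version is not stated there. The deposited scaling was kept. The sample without a number was taken as siLuc of experiment 1 by elimination, and the sample titled as siLuc of experiment 3 carries number 2 in its description, where the title was followed.

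After removal of 68 controls from the 22283 probe sets, 13329 with a mean log2(intensity + 16) at or above the 40th percentile (8.614, a signal of about 376) were kept. For dim probe sets the offset of 16 makes fold changes smaller. R 4.3.3 and limma 3.58.1 (lmFit, eBayes with an intensity trend) fitted siRNA and experiment, with 2 residual and 7.17 prior degrees of freedom. P-values are two-sided and Benjamini-Hochberg adjusted over all kept probe sets, with a threshold of 0.05. They rest on the spread between 3 experiments, pooled with a prior variance fitted to probe sets of like intensity. With 7.17 prior against 2 residual degrees of freedom, the prior weighed more. The experiment number was used as a block. The design text says that the number marks an independent experiment, and it compares RNAs within experiments. The fit without the siLuc array of experiment 1 had no block. Deviations from the group means correlated at -0.012, 0.157 and 0.157 within experiments 1, 2 and 3. Between siPTHrP and siLuc arrays of unlike number they correlated at -0.206 to 0.132.

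In the annotation 19071 probe sets have 1 gene, 1043 have several and 2169 have none, and symbols were updated through Entrez identifiers to RefSeq. Promoters of 5 of the 10 genes were found in the RefSeq table. Members and lists were chosen with earlier results of these data known. From each list, up to 4 genes with the smallest p on their brightest kept probe set were named, and for likeness the 3 highest correlations. The steps were tested on simulated data. Alternatives were an unpaired model, other offsets (1 and 64), median centring, quantile normalization, other filters (none or the 60th percentile), no or a robust trend, array weights, leaving out each experiment or the siLuc array of experiment 1, and the mean over a gene's probe sets.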

Additional observations from a re-analysis of the deposited data

How the results depend on the processing

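The number of arrays limits every value here. The count of probe sets past the threshold, 0 as reported, was 177 with array weights and 0 to 215 when 1 experiment or the siLuc array of experiment 1 was left out (33, 47 and 215 without experiments 1, 2 and 3). The count of member probe sets past it, 0 as reported, was 1 with array weights and 0 to 1 on leaving out, in each case CTNNB1. Fits without an experiment lean more on the prior variance. With no replicate block both counts were 0, and pairing changed no call. The members' median log2 fold change of 0.50 was 0.82 with median centring, 0.32 with array weights, 0.34 with the mean over all probe sets of a gene, and 0.35 to 0.42 on leaving out. Median centring moved the median of all kept probe sets to 0.36, and quantile normalization moved it to 0.09. The log2 fold change of WNT5A, 0.10 as reported, lay between -0.042 and 0.184 without 1 experiment (negative without experiment 2), and was 0.43 with median centring and 0.32 without the siLuc array of experiment 1, and that of FZD2, 0.15 as reported, between -0.021 and 0.353 (negative without experiment 1); the cause was not tested. On the brightest probe sets of the other 6 kept genes the sign held under all 15 alternatives. The dimmer LRP6 set 34697_at changed sign with quantile normalization and with median centring. At an unadjusted p under 0.05, no filter gave 984 higher and 1529 lower, and no intensity trend 460 and 865. Leaving out the siLuc array of experiment 1 in the count of separated groups was chosen after seeing the data.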
